A study of Mus musculus with 31 samples.

Results

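Small nucleolar RNAs and their Cajal body relatives were followed in the colonic lining of mice that had received short-chain fatty acids by rectal infusion. Members were all genes whose symbol begins with Snora, Snord or Scarna followed by a digit and that had a probe set carrying that symbol alone. Where a symbol had several probe sets, the one with the highest mean level was taken. This gave 59 members of 18820 genes: 26 box H/ACA RNAs (Snora), 30 box C/D RNAs (Snord) and 3 Scarna RNAs. Of them 55 passed a filter on dim genes (24, 28 and 3 of the classes in that order), and Snora19, Snora36b, Snord61 and Snord73a did not.

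Box C/D RNAs are short nucleolar RNAs that pair with ribosomal RNA and direct the methylation of riboses, whereas box H/ACA RNAs direct the conversion of uridine to pseudouridine. Scarna RNAs carry the same motifs, reside in Cajal bodies and guide such modifications on the RNAs of the spliceosome. In mammals most of them are cut out of introns of other genes, the hosts, many of which encode ribosomal proteins or are noncoding genes that serve mainly as hosts. Dividing epithelium such as that of the colon makes many ribosomes, and these RNAs are part of that machinery.

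RNA came from scrapings of the colon of male C57Bl/6J mice of 13 weeks, housed singly. The animals had eaten a semi-synthetic high-fat diet (HFD, 45% of energy from fat, palm oil in place of lard) or low-fat diet (LFD, 10%) and were infused on 6 days with 80 µL of a solution of pH 6.5. The groups were 100 mM sodium propionate, 100 mM sodium acetate, 100 mM sodium butyrate and saline alone, each on HFD and on LFD, and tissue was taken 4 h after the last infusion, under light sedation in all groups. Each group had 4 arrays, acetate on LFD 3, and the labels name 6 mice per group without saying which mice the 31 arrays hold, so that p-values measure the spread between these samples. The 3 acids are straight-chain carboxylic acids, acetate the shortest, then propionate, then butyrate. Fat and the other parts of the diets cannot be told apart.

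Values are log2 levels as the authors computed them by RMA, a procedure that corrects background, sets arrays to a common distribution and sums up the probes of a probe set. Array medians lay between 5.14 and 5.19, and replicate arrays had pairwise r values of 0.987 to 0.994. Markers of colon epithelium (10 of 10 tested) averaged 11.6 to 11.9 and those of goblet cells (5 tested) 11.8 to 12.0 over the 31 arrays. Some arrays stood apart before any comparison. Saline HFD 1 and 2 held more smooth muscle transcripts (6.80 and 6.56, against at most 5.98 on any other array). Propionate LFD 2, saline LFD 2 and 3 and saline HFD 2 were high in transcripts of small-intestinal absorption (up to 8.41). In bulk tissue, fewer cells of a type and less RNA per cell cannot be told apart. Genes below an intensity of 20 on all but 2 or fewer of the arrays were set aside, leaving 12795 for testing, and differences are log2 differences ± the standard error of a limma fit to all 31 arrays. Called means a Benjamini-Hochberg adjusted p under 0.05 over all genes of the comparison. Of the tested members 51 were at the filter level on every array, and the least seen was Snord38a, at that level on 3 arrays of 3 groups.

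Colons infused with propionate on HFD had the highest mean in all 3 classes. On HFD the 24 box H/ACA RNAs averaged 7.76 ± 0.257 under propionate, 6.82 ± 0.324 under acetate and 6.83 ± 0.211 under butyrate, against 6.98 ± 0.289 under saline (SD, n = 4 each). On LFD they averaged 6.75 ± 0.182 under propionate, 7.11 ± 0.385 under acetate (n = 3) and 6.93 ± 0.204 under butyrate, against 7.16 ± 0.352 under saline (SD, n = 4 for the others). The 4 propionate HFD arrays lay between 7.45 and 8.03, above every array of the other HFD groups, whose highest was 7.25.

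Box C/D RNAs were also highest there, with a smaller span. They averaged 7.72 ± 0.272 under propionate on HFD (n = 4), against 7.21 ± 0.178 under saline on HFD, 7.17 ± 0.13 under propionate on LFD and 7.46 ± 0.279 under saline on LFD. The lowest propionate HFD array, at 7.35, fell inside the range of saline on HFD, which reached 7.36. The 3 Scarna RNAs averaged 7.89 ± 0.206 under propionate on HFD and 7.41 ± 0.16 under saline on HFD.

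Individual arrays did not all keep to their group. Ranked by the mean of all 55 members, propionate HFD 2 (8.00) and 3 (7.79) came first, then saline LFD 1 (7.78), propionate HFD 1 (7.78) and acetate LFD 1 (7.58), all ahead of propionate HFD 4 (7.40). Saline LFD 1 stood above the other saline LFD arrays, which lay between 7.11 and 7.29, and without it the order of the LFD groups changes, as given with those comparisons. The members varied more within groups than other genes did: the median SD of a member was 0.338 under propionate on HFD and 0.349 under saline on LFD, against 0.160 and 0.150 for all tested genes.

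**Figure D1:**
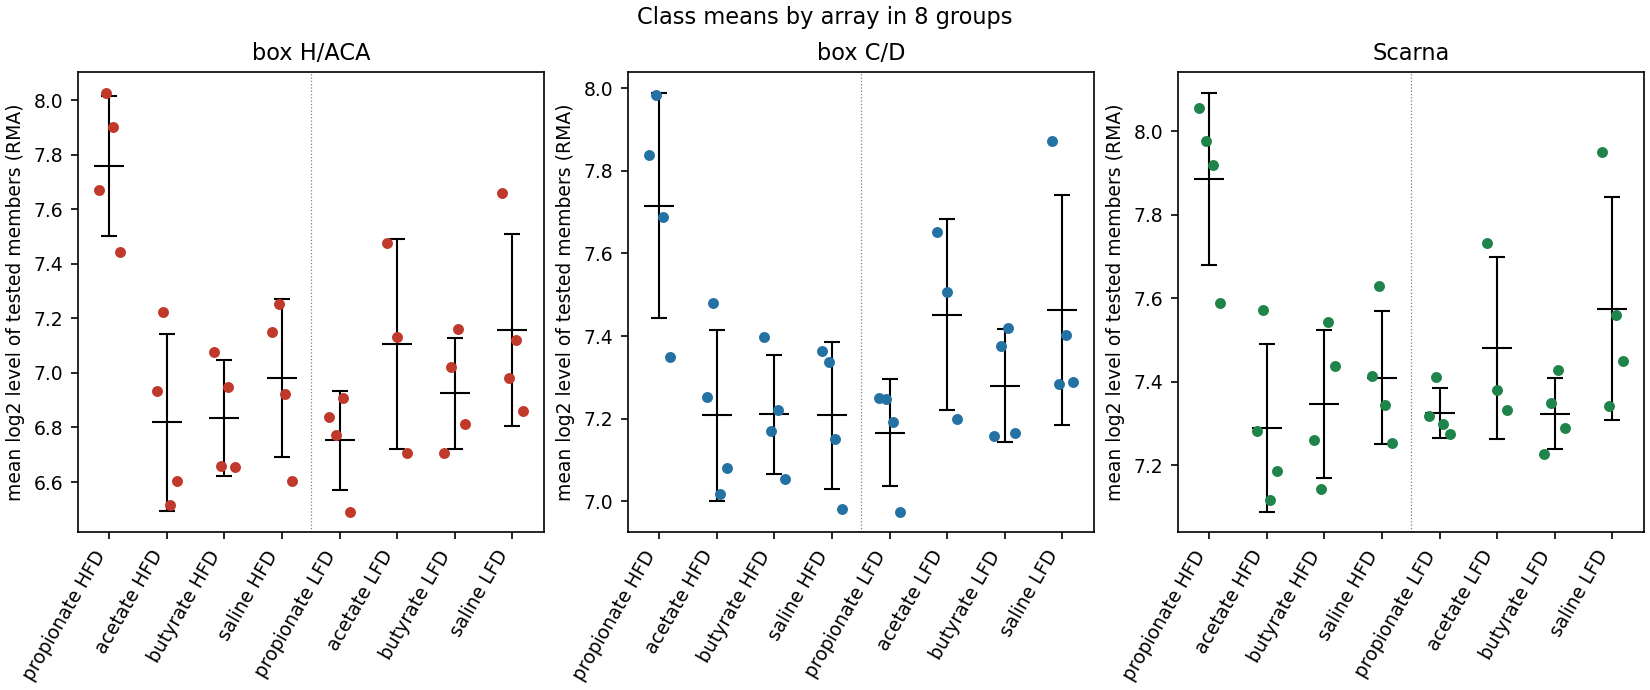
Mean log2 level (RMA) of the tested members of each class on the y axis, by group on the x axis. Points are arrays, the horizontal bar and whiskers are the group mean ± SD, and the dotted line divides HFD (left) from LFD (right). The box H/ACA means of propionate HFD, 7.45 to 8.03, lie above all other HFD arrays, while 1 array of saline LFD and 1 of acetate LFD are high in every class.

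HFD was set against LFD among the propionate-infused animals to ask how diet bears on the members under this acid. The members rose: 34 of 55 were called higher on HFD and 0 lower, where 2.05% of all 12795 genes were called higher and 4.82% lower. Of the box H/ACA RNAs 21 of 24 were called, of the box C/D RNAs 11 of 28 and of the Scarna RNAs 2 of 3. The median difference was 0.65 over the members and -0.02 over all genes, and 53 of 55 members lay above 0, as did 45.7% of genes. In 32 members the 4 HFD arrays lay wholly above the 4 LFD arrays, which held for 5.22% of all genes.

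The number of calls depended on single arrays. Without propionate HFD 2 only 1 member was called, without propionate HFD 3 there were 8, without propionate LFD 3 or 4 there were 10 each, and without propionate HFD 4 there were 42. The median member difference stayed between 0.59 and 0.73 whichever of the 8 arrays was left out. The difference of 11 of the 55 members moved by over 1.5 times when 1 of these arrays was left out, and none of these 11 is among the 34 called. Snord38a, for example, differed by 0.54 with all arrays and by 0.28 without propionate HFD 1. Leaving out propionate LFD 2 with the other arrays high in small-intestinal transcripts gave 31 calls.

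Among the box H/ACA RNAs the largest rise between the diets reached 4.29-fold. Snora33, whose gene lies in Rps12, had levels of 6.76, 8.71, 9.29 and 8.31 on the propionate HFD arrays, against 6.22, 6.28, 6.42 and 5.74 on the propionate LFD arrays. The groups did not overlap, though propionate HFD 1 was much closer to LFD than the other 3 arrays, and the difference was 2.10 ± 0.45 (4.29-fold, limma adjusted p = 0.0153). Snora74a, in the noncoding host Snhg4, read 7.87, 9.05, 9.20 and 8.49 on propionate HFD arrays and 7.03, 6.91, 7.35 and 6.42 on propionate LFD arrays. It differed by 1.73 ± 0.35 (limma adjusted p = 0.0133), with every HFD array above every LFD array.

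Members that lie in the same noncoding host rose together. Snhg12 holds Snora61, Snora44 and Snora16a, which guide pseudouridine formation, and they were higher by 1.87 ± 0.40, 1.37 ± 0.27 and 1.00 ± 0.26 (limma adjusted p = 0.0153, 0.0133 and 0.0276). Snora61 read 8.10, 9.32, 9.21 and 8.15 on propionate HFD arrays, against 6.70, 6.76, 7.62 and 6.22 on propionate LFD arrays, with propionate LFD 3 the nearest to the HFD arrays and still below all of them. Snhg3 holds Snora73a and Snora73b, copies of the RNA known as U17, which acts in the cleavage of the ribosomal RNA precursor and not as a plain modification guide.

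Snora73a read 10.47, 10.42, 9.71 and 9.66 under propionate on HFD, against 8.70, 8.29, 8.55 and 8.10 under propionate on LFD, a rise of 1.65 ± 0.38 (limma adjusted p = 0.0156). Snora73b rose by 1.57 ± 0.37 (limma adjusted p = 0.0183). As copies of one RNA their probe sets may share signal, and they do not count as separate measurements. Saline LFD 1, at 10.44 for Snora73a, was as high as the propionate HFD arrays, and acetate LFD 1 reached 10.02.

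The other called box H/ACA RNAs of coding hosts rose by between 0.38 and 1.60. Snora31, in Tpt1, read 9.06, 8.92, 7.52 and 7.67 on propionate HFD arrays and 6.95, 6.71, 6.76 and 6.34 on propionate LFD arrays, with propionate HFD 1 and 2 well above the other 2. Snora20, in the chaperonin gene Tcp1, had 6.19, 6.25, 6.65 and 5.96 under propionate on HFD, against 4.63, 4.72, 5.20 and 4.79 under propionate on LFD. It was among the most even of the large rises, at 1.43 ± 0.26 (limma adjusted p = 0.0133). The smallest called rise was that of Snora52, in Rplp2 and the box H/ACA member with the highest mean level, at 0.38 ± 0.10 (limma adjusted p = 0.0257). Snora3 (0.87 ± 0.27), Snora28 (0.39 ± 0.12) and Snora2b (0.15 ± 0.14) were not called.

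Box C/D RNAs spread from no difference to large rises. Snord118, known as U8, is needed to process the RNAs of the large ribosomal subunit and is the only tested member that lies in no other gene. It read 7.07, 9.48, 8.97 and 7.28 on propionate HFD arrays, against 6.32, 6.80, 6.67 and 5.49 on propionate LFD arrays, and rose by 1.88 ± 0.57 (limma adjusted p = 0.045). Propionate HFD 2 and 3 carried most of that difference, and acetate HFD 2 was also high, at 8.57. Both RNAs of the ribosomal protein gene Rps3 rose, Snord15b by 1.47 ± 0.35 (limma adjusted p = 0.0187) and Snord15a by 0.84 ± 0.18 (limma adjusted p = 0.0147). Snord15a read 6.54, 7.06, 6.93 and 6.56 under propionate on HFD, against 5.95, 6.06, 5.97 and 5.78 under propionate on LFD, without overlap.

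Snord55 had 7.60, 7.98, 7.64 and 7.09 on propionate HFD arrays and 6.80, 6.68, 6.68 and 6.61 on propionate LFD arrays, a rise of 0.88 ± 0.18 (limma adjusted p = 0.0133). Snord104, the box C/D member with the highest mean level, rose by 1.01 ± 0.27 (limma adjusted p = 0.0297). The other 6 that passed were Snord87, Snord53, Snord49b, Snord33, Snord49a and Snord82, with rises of 0.45 to 0.79. Snord35b had a larger difference, 1.16 ± 0.40, and was not called (limma adjusted p = 0.0697): its propionate HFD arrays read 9.83, 9.22, 8.13 and 7.62, and its propionate LFD arrays 7.90, 7.85, 7.36 and 7.05.

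A few box C/D RNAs stood near 0. Snord37, in the elongation factor gene Eef2, had 4.93, 5.02, 4.96 and 5.29 under propionate on HFD, against 5.46, 5.53, 5.20 and 4.89 under propionate on LFD, a difference of -0.22 ± 0.20 (95% interval -0.63 to 0.20). The interval lies below the smallest called rise, that of Snora52. Snord58b, in Rpl17, differed by -0.20 ± 0.16 at levels of 3.91 to 4.74, near the filter level, which was reached on 15 of the 31 arrays. Snord95 and Snord96a, both in Rack1, differed by 0.12 ± 0.10 and 0.04 ± 0.12. No called member shares their host.

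Of the Scarna RNAs, Scarna13, in the noncoding gene Snhg10, read 8.63, 8.49, 8.14 and 8.18 on propionate HFD arrays and 7.48, 7.46, 7.24 and 7.25 on propionate LFD arrays. It rose by 1.00 ± 0.21 (2.00-fold, limma adjusted p = 0.0133) without overlap. Scarna17 rose by 0.58 ± 0.17 (limma adjusted p = 0.0362), and Scarna8, the dimmest of the 3, differed by 0.10 ± 0.14 (limma adjusted p = 0.718).

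**Figure D2:**
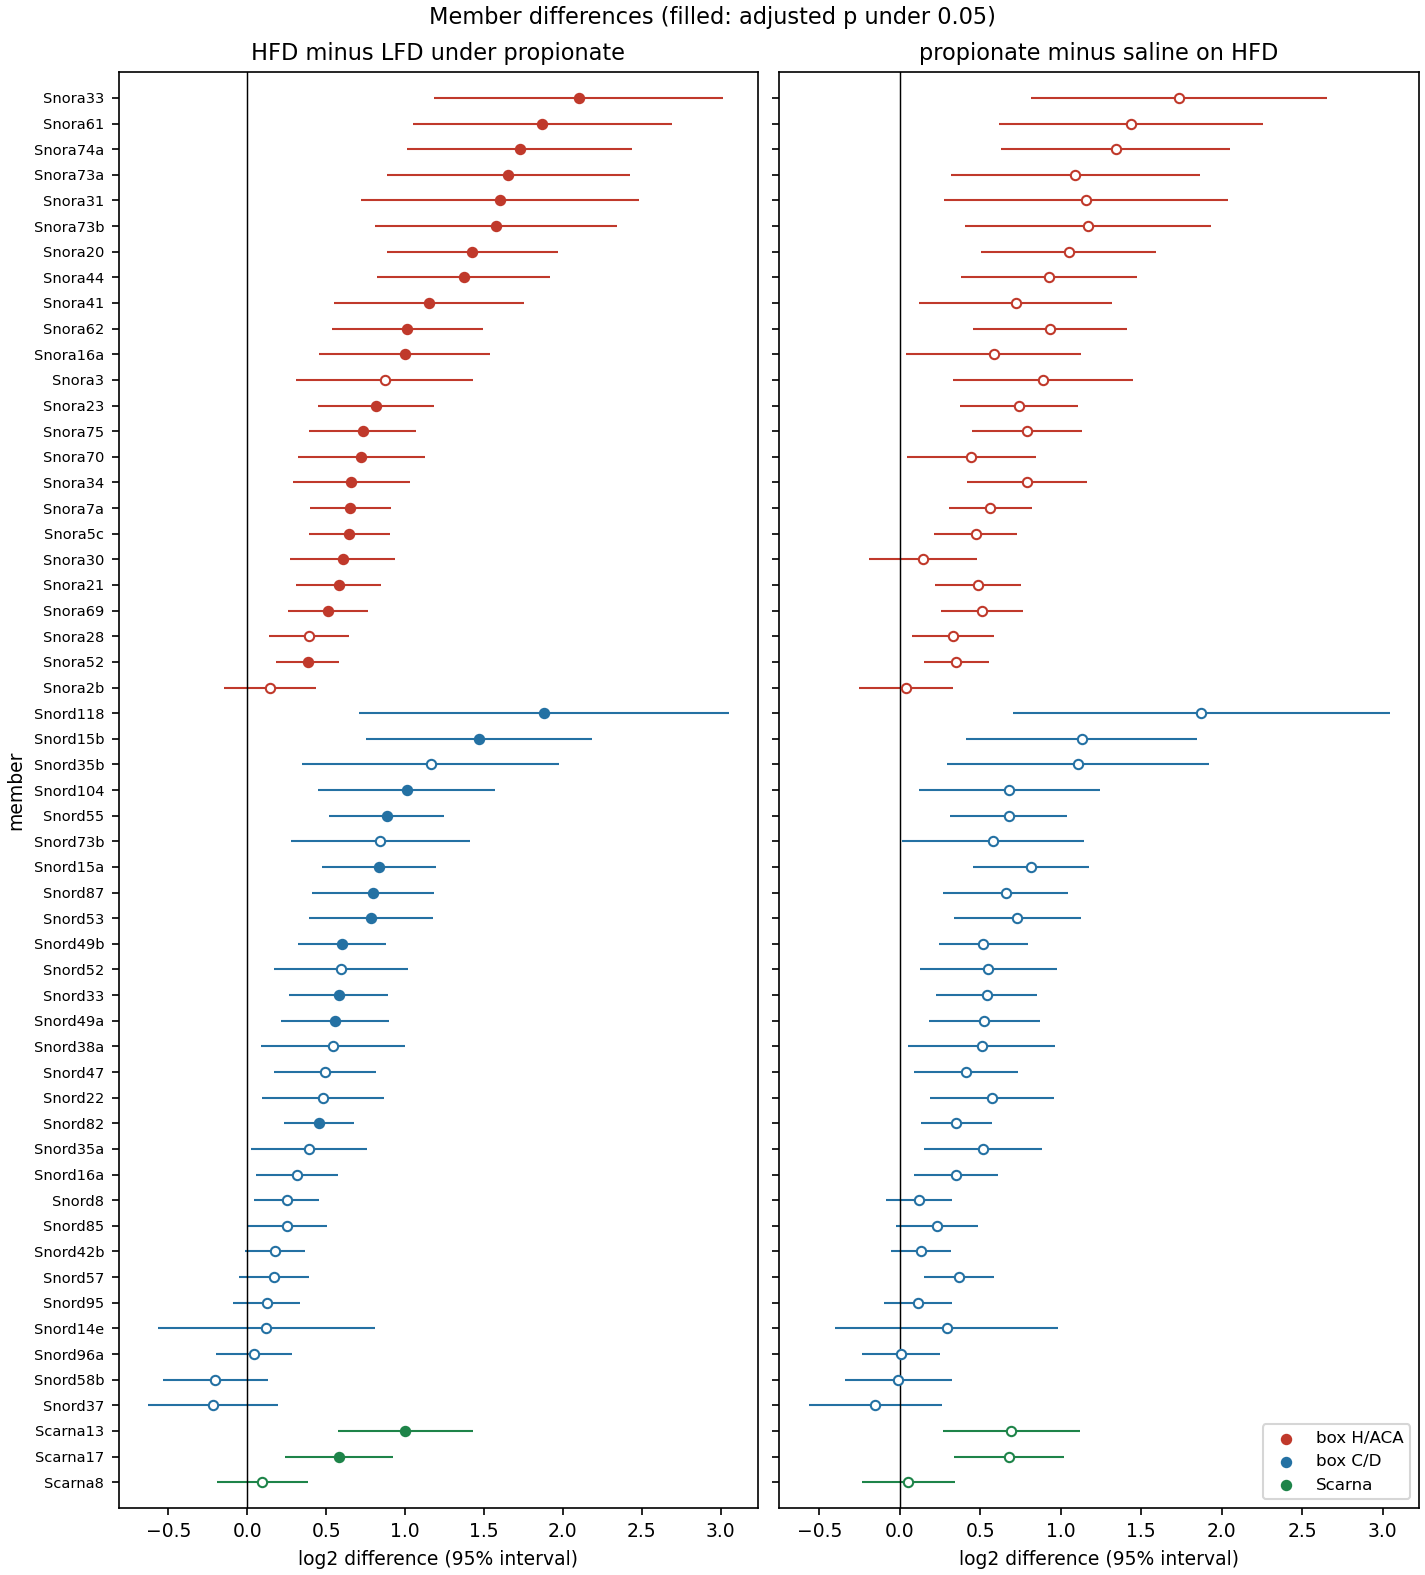
Log2 difference (x axis, with its 95% interval) of each of the 55 tested members (y axis), HFD minus LFD under propionate on the left and propionate minus saline on HFD on the right. Colours mark the classes and filled points an adjusted p under 0.05. On the left 34 points are filled and 53 lie above 0, and on the right 0 are filled and 53 lie above 0.

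Propionate was next set against saline on HFD, groups that share the diet and differ in the acid infused. The saline arrays include those high in smooth muscle or small-intestinal transcripts. No gene was called: the smallest limma adjusted p was 0.236 over 12795 genes, and 0% of genes and 0 of 55 members passed. At an unadjusted p under 0.05, 44 of 55 members were higher under propionate and 0 lower, where 3.81% of all genes were higher and 7.89% lower at that level. The median member difference was 0.56, against -0.02 over all genes, and 53 members lay above 0, as did 44.4% of genes. In all, 19 members had every propionate array above every saline array, which held for 1.75% of genes. Class means differed by 0.78 for box H/ACA, 0.51 for box C/D and 0.48 for Scarna RNAs.

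The smallest unadjusted p-values were those of Snora75, in the nucleolin gene Ncl, and Snord15a. Snora75 read 5.76, 5.94, 5.49 and 5.60 under propionate on HFD, against 5.23, 4.61, 4.89 and 4.89 under saline on HFD, and differed by 0.79 ± 0.17. Snord15a differed by 0.81 ± 0.18, with 6.54, 7.06, 6.93 and 6.56 on the propionate arrays and 6.14, 6.22, 5.78 and 5.70 on the saline arrays of HFD. The groups did not overlap in either member.

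The largest differences were less even. Snord118 differed by 1.87 ± 0.57 and its groups overlapped, since saline HFD 2 stood at 7.42 while propionate HFD 1 stood at 7.07. Snora33 differed by 1.73 ± 0.45, with saline HFD arrays at 6.21, 7.28, 6.75 and 5.89 and the lowest propionate HFD array at 6.76. Snora61 (1.44 ± 0.40) and Snora74a (1.34 ± 0.35) were higher on all 4 propionate arrays than on any saline array of HFD. In this comparison 9 tested smooth muscle markers had a median difference of -0.76, from the high values of saline HFD 1 and 2. Without these 2 arrays the mean difference was 1.00 for box H/ACA and 0.65 for box C/D RNAs, against 0.78 and 0.51 with all arrays. The box H/ACA means of saline HFD 1 and 2 were 7.15 and 7.25, above the 6.92 and 6.60 of saline HFD 3 and 4. What the tissue mix adds to the differences was not tested.

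**Figure D3:**
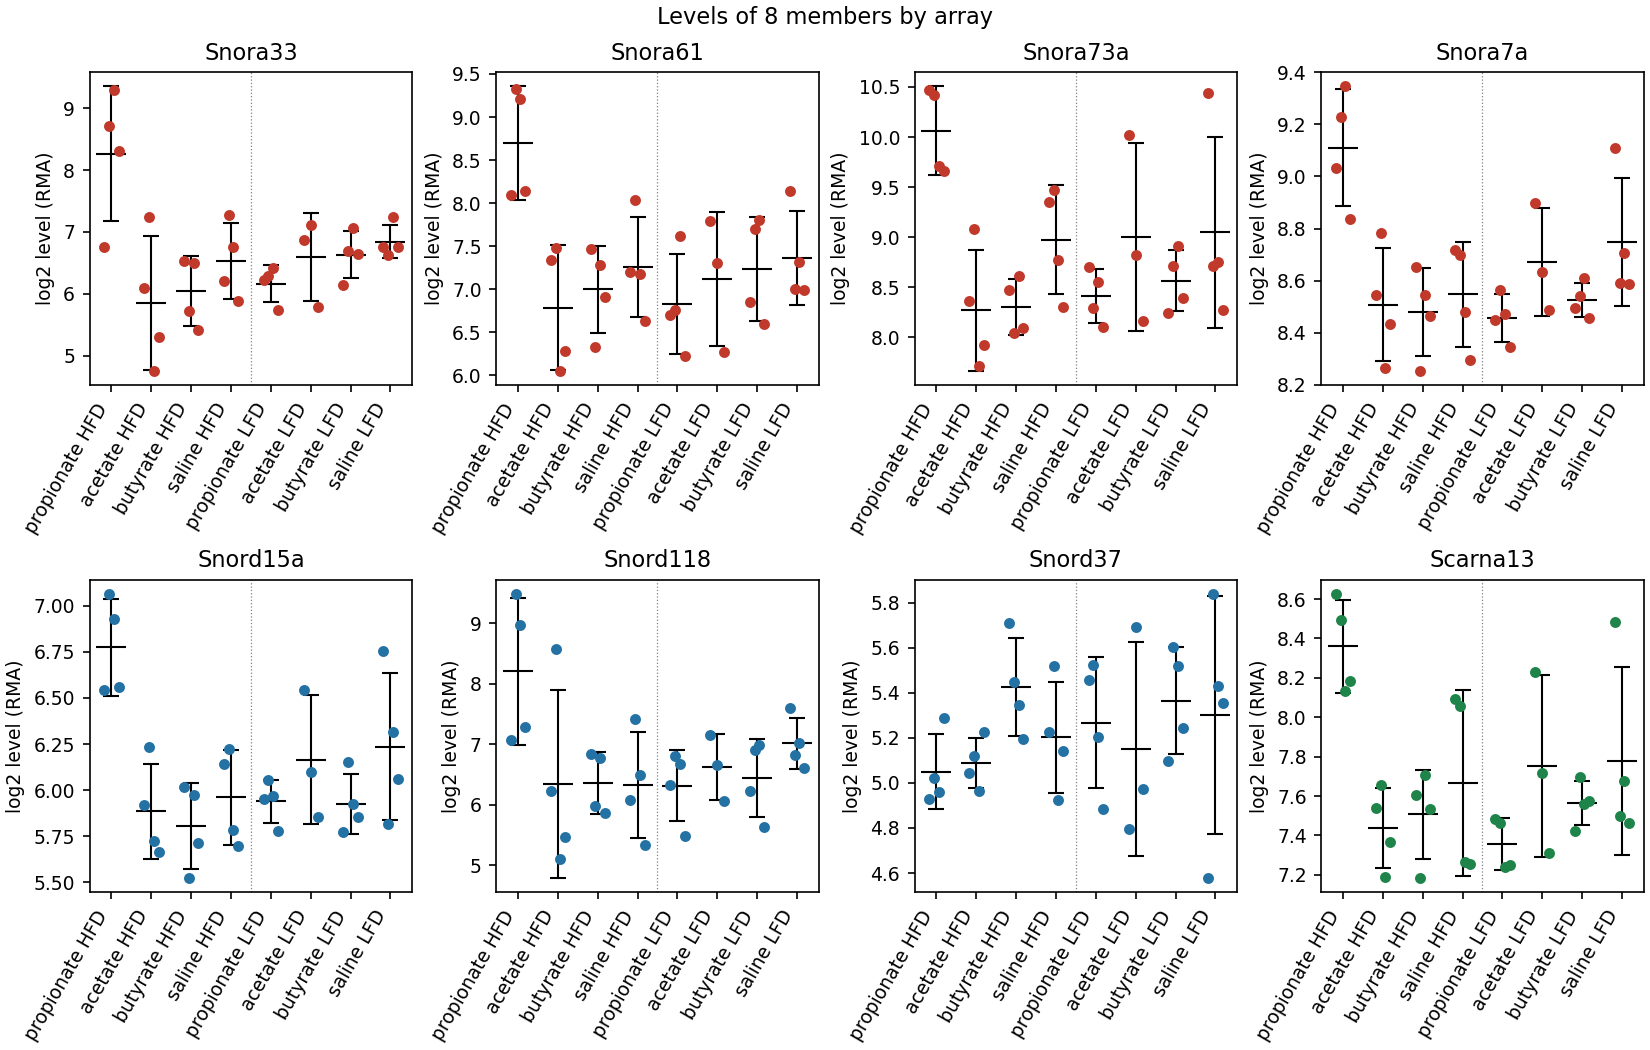
Log2 level (RMA, y axis) of 8 members on every array, by group (x axis). Points are arrays, bars and whiskers the group mean ± SD, and the dotted line divides HFD (left) from LFD (right). Snora33, Snora61 and Snord118 reach their highest values under propionate on HFD with a wide spread, Snora7a and Snord15a with a narrow one, and Snord37 shows no such rise.

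The acids were infused at the same dose, volume and time, so they were also compared with each other within each diet, 6 pairs in all. On HFD, butyrate against propionate gave 4 members lower and 0 higher, where 0.0469% of genes (6 of 12795) were called lower and 0.0156% higher. Snora33 was at 6.54, 5.72, 6.50 and 5.41 under butyrate, against 6.76, 8.71, 9.29 and 8.31 under propionate, and fell by 2.23 on the log2 scale (SE 0.45, limma adjusted p = 0.0492). Butyrate HFD 1 came within reach of propionate HFD 1, but the groups did not overlap.

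Snord15a read 6.02, 5.52, 5.98 and 5.71 under butyrate, against 6.54, 7.06, 6.93 and 6.56 under propionate, a difference of -0.97 ± 0.18 (limma adjusted p = 0.0475). Snora7a, in Rpl32, read 8.65, 8.25, 8.55 and 8.46 under butyrate and 9.03, 9.23, 9.35 and 8.83 under propionate. Snora5c, in Tbrg4, read 6.05, 5.80, 5.96 and 5.76 under butyrate and 6.50, 6.53, 6.84 and 6.20 under propionate. These differed by -0.63 ± 0.13 and -0.62 ± 0.13 (limma adjusted p = 0.0492 for each), again without overlap.

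The median over all 55 members was -0.63, and 42 of them were lower at an unadjusted p under 0.05, where 4.57% of genes were. In 25 members every butyrate array lay below every propionate array, as in 2.08% of genes. All 4 calls sit just under the threshold. With each of the 31 arrays left out in turn 0 members were called 18 times, each butyrate HFD array and propionate HFD 2 and 3 among them. The highest counts were 26 without saline LFD 1 and 20 without propionate HFD 1, propionate HFD 4 or acetate LFD 1.

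Propionate against acetate on HFD called 0 members and 0% of genes, with a smallest limma adjusted p of 0.0576. At an unadjusted p under 0.05, 41 members were higher and 1 lower, where 4.89% of genes were higher and 8.28% lower, and the median was 0.62. Snora33 had the largest difference, 2.42 ± 0.45 (95% interval 1.51 to 3.34), with acetate arrays at 6.09, 7.24, 4.75 and 5.29. The 1 lower member was Snord58b, at -0.35 ± 0.16. The number called ranged from 0 to 23 when 1 array was left out, the highest without propionate HFD 4, then 22 without acetate HFD 2.

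Between butyrate and acetate on HFD 0 members and 0% of genes were called (smallest limma adjusted p 0.996). At an unadjusted p under 0.05 there were 0 members and 3.64% of genes, and the median member difference was 0.02, between -0.07 and 0.10 with 1 array left out. The intervals still allow sizeable differences for the most variable members: Snora33 differed by 0.20 (95% interval -0.72 to 1.11), whereas Snora7a differed by -0.03 (-0.29 to 0.23). Against saline on HFD, acetate and butyrate gave member medians of -0.03 (-0.13 to 0.03 with 1 array left out) and -0.06 (-0.15 to -0.01), with 0 members and 0% of genes called in each.

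On LFD no member and 0% of genes were called in any comparison of an acid with saline or with another acid. Propionate had the members lowest: the median against saline was -0.32, with 53 of 55 below 0 (56.1% of genes lay above 0) and 15 lower at an unadjusted p under 0.05, where 1.56% of genes were. Snora5c differed by -0.35 ± 0.13, at 5.96, 5.95, 5.81 and 5.77 under propionate and 6.35, 6.05, 6.28 and 6.22 under saline on LFD. Snord53, in Wdr43, differed by -0.55 ± 0.19. Without saline LFD 1 the median came to -0.16, a change by more than 1.5 times from 1 array. Acetate and butyrate against saline on LFD had medians of -0.06 and -0.22. The first turned to 0.11 without saline LFD 1 and to 0.12 without acetate LFD 3, and the second came to -0.07 without saline LFD 1.

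Among acid pairs on LFD, propionate against acetate had a member median of -0.30, -0.16 without acetate LFD 1, and butyrate against propionate one of 0.12, which came to 0.06 without butyrate LFD 3 and 0.05 without propionate LFD 4. Butyrate against acetate had a median of -0.18, or -0.05 without acetate LFD 1 and -0.29 without acetate LFD 3. There Snord38a and Scarna8 had the smallest unadjusted p-values of their classes (-0.66 ± 0.24 and -0.32 ± 0.15, limma adjusted p = 1 for both). Snord38a averaged 3.33 under butyrate and 3.99 under acetate on LFD, both below the filter level of 4.32.

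The propionate response was also compared between the diets directly. The difference of the differences was called for 0 members and 0% of genes, with a smallest limma adjusted p of 0.141. At an unadjusted p under 0.05, 44 members had a higher response on HFD and 0 a lower one, where 4.24% of genes had a higher and 8.6% a lower one, and the median was 0.88. Snora7a, Snora23 and Snord53 had the smallest unadjusted p-values, at 0.86 ± 0.18, 1.21 ± 0.25 and 1.28 ± 0.27. The same contrast for acetate and butyrate gave medians of -0.04 and 0.15.

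In animals not given propionate no member was called between HFD and LFD. Under saline the median was -0.19 with 50 of 55 members below 0, under acetate -0.20 with 50 below 0 and under butyrate -0.07, with 0 members and 0% of genes called each time. The saline median came to -0.07 without saline LFD 1, with 20 members then above 0, and to -0.08 without saline HFD 4. The acetate median came to -0.10 without acetate LFD 1, -0.33 without acetate HFD 2 and -0.36 without acetate LFD 3. The butyrate median lay between -0.13 and -0.02 with 1 array left out. Of all genes 52.6% lay above 0 under saline and 52.7% under acetate. Under saline 8 members were lower at an unadjusted p under 0.05, where 3.21% of genes were. Snora34 had the smallest unadjusted p under saline, at -0.53 ± 0.18 (limma adjusted p = 0.667). Averaged over the 4 infusions 0 members were called, where 1.53% of genes were called higher and 1.16% lower, and the median was 0.04. These comparisons share arrays with those above, so that they do not stand apart from them.

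The classes could be set side by side on each array. The mean of box H/ACA minus that of box C/D RNAs lay between -0.17 and 0.21 on the 4 propionate HFD arrays, against -0.48 to -0.28 on the propionate LFD arrays and -0.38 to -0.08 on the saline HFD arrays. The propionate HFD and LFD ranges did not overlap, whereas those of propionate and saline on HFD did. A level of 0 here has no meaning of its own, because different probe sets have different brightness, and only the shift between groups can be read.

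Difference and RefSeq length were related across the members but not within box H/ACA. Whether each RefSeq entry holds the whole RNA was not checked. Across the 55 members Spearman's rho between the RNA's RefSeq length and its difference between HFD and LFD under propionate was 0.42, as a description over members that share the same 8 arrays. Lengths differ by class, with medians of 119 bases for box H/ACA and 69.5 for box C/D members. Within box C/D rho was 0.41 and within box H/ACA -0.02. The 28 members of 100 bases or more had a median difference of 0.83 with 23 called, the 16 under 70 bases one of 0.52 with 7 called. These bins largely follow class: 22 of the 28 are box H/ACA and 13 of the 16 box C/D RNAs. Within box H/ACA the 22 long members had a median of 0.77 and the 2 with entries under 70 bases one of 1.65. These 2 are Snora20 (61 bases) and Snora61 (62 bases), far below the class median, and their entries may be partial. Within box C/D the 4 long members had 1.15 and the 13 under 70 bases 0.45. Mean level and difference were less related, with a rho of 0.18.

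**Figure D4:**
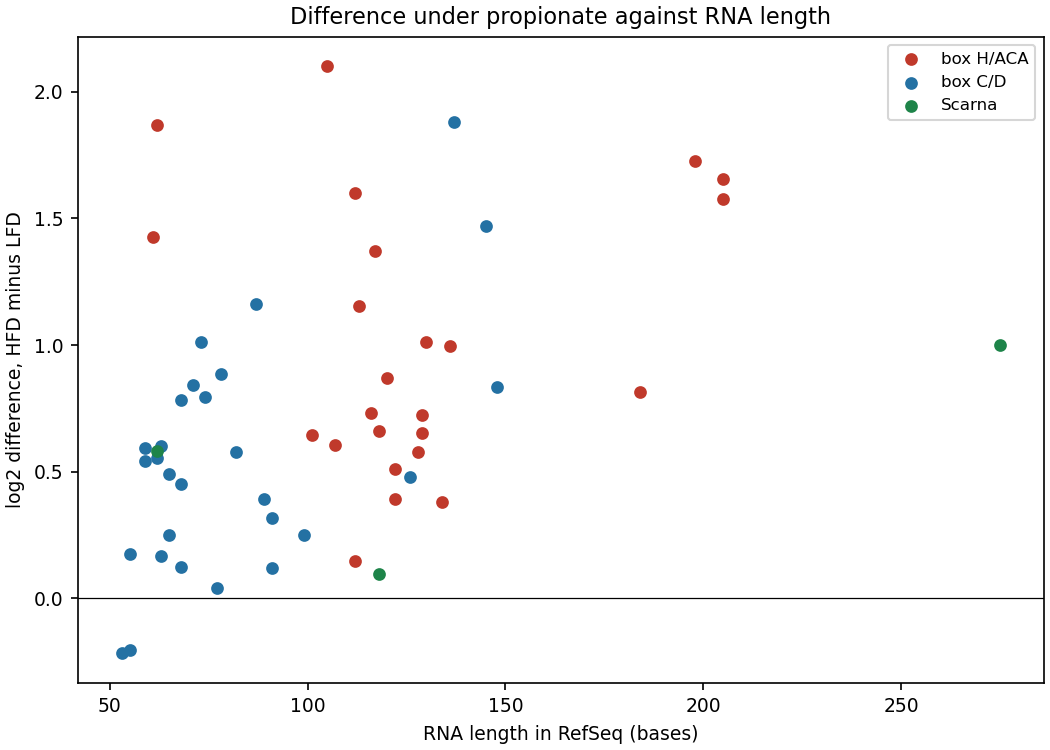
Log2 difference between HFD and LFD under propionate (y axis) of the 55 tested members against the length of the RNA in RefSeq in bases (x axis). Points are members, coloured by class. The median of members of 100 bases or more, mostly box H/ACA, is 0.83. That of members under 70 bases, mostly box C/D, is 0.52, and within box H/ACA no order by length is visible.

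Most of the host transcripts that were tested, nearly all of coding genes, differed less than the RNAs inside them. Of the 55 tested members 19 lie within ribosomal protein genes, 15 within noncoding genes and 20 within other coding genes, by RefSeq positions whose strand was not checked. Members in noncoding hosts had a median difference of 1.00 between HFD and LFD under propionate (12 of 15 called), those in ribosomal protein genes 0.65 (11 of 19) and those in other coding genes 0.42 (10 of 20). For 32 of them, in 28 hosts, the host itself was tested on its own probe set. These hosts were 13 ribosomal protein genes, 14 other coding genes and 1 noncoding gene, Gas5. The noncoding hosts of the other members, Snhg12, Snhg3 and Snhg4 among them, were not tested, so their transcripts cannot be compared with the members. The tested hosts had a median of 0.09, and the member exceeded its host in 28 of 32 pairs.

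The 4 hosts called were all ribosomal protein genes, and all were higher. Rps12, host of Snora33, read 10.92 on average under propionate on HFD, against 10.37 under propionate on LFD, a rise of 0.55 ± 0.13 (limma adjusted p = 0.0162). Rpsa, host of Snora62, rose by 0.35 ± 0.10, Rps3a1, host of Snord73b, by 0.29 ± 0.07 and Rpl23a, host of Snord42b, by 0.20 ± 0.06. Snora62 itself rose by 1.01 ± 0.23 (limma adjusted p = 0.0162), while Snord73b (0.84 ± 0.28) and Snord42b (0.17 ± 0.09) were not called. Rps3, which holds Snord15a and Snord15b, differed by 0.23 ± 0.10 (limma adjusted p = 0.146).

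Some hosts hold members that did not move alike or that belong to different classes. Ncl holds the box H/ACA RNA Snora75 and the box C/D RNA Snord82, and both rose under propionate on HFD over LFD, by 0.73 ± 0.17 and 0.45 ± 0.11. In Kansl2, Snora34 rose by 0.66 ± 0.18 while Snora2b, at the filter level on 8 of 31 arrays, differed by 0.15 ± 0.14. Over deviations from the group means, members correlated with each other at a median r of 0.50 (1485 pairs over 31 arrays), against 0.004 for all tested genes. The correlation with the host had a median of 0.26 over 32 pairs and ranged from -0.27 to 0.86.

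**Figure D5:**
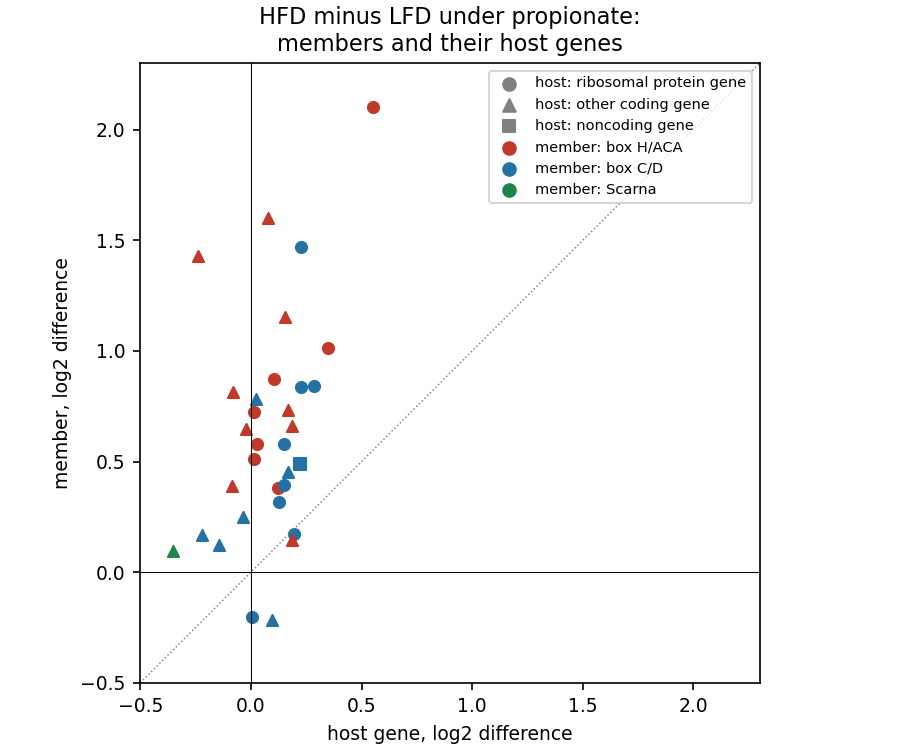
Log2 difference between HFD and LFD under propionate of 32 members (y axis) against that of the gene each lies in (x axis). Marker shapes give the kind of host, colours the class of the member, and the dotted line marks equal differences. Of the points 28 lie above the line, and no host differs by more than 0.55.

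The start regions of 4 hosts are shown because their RNAs moved together (Snhg12, Snhg3, Rps3) or moved most (Rps12). Host genes of this kind often begin in a run of pyrimidines, so the motif CTTTC was searched on both strands from 50 bases before to 50 bases after the start, in RefSeq's GRCm38.p6 promoters. Capitals mark the motif. The windows are chr4:132308628-132308727 (plus strand) for Snhg12, chr4:132353637-132353736 (minus) for Snhg3, chr10:23787160-23787259 (minus) for Rps12 and chr7:99483660-99483759 (minus) for Rps3.
Snhg12: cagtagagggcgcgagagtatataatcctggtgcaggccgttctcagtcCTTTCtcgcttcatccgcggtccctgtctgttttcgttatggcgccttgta
Snhg3: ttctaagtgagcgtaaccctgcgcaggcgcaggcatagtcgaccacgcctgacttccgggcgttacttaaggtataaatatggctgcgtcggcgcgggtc
Rps12: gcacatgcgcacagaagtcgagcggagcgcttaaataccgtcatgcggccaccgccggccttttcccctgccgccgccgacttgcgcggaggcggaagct
Rps3: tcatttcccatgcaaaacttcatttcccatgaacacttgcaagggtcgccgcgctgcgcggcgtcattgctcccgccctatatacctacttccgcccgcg
Snhg12 holds the motif at its start and the other 3 do not hold these letters in this window. Of 36 promoter windows of tested members' hosts 41.7% held it on either strand, as did 23.4% of 32851 promoter windows of all genes. A match is a description of letters and not a site.

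Small RNAs of the nucleus and cytoplasm that the symbol rule keeps out of the members rose on HFD under propionate as well. This list was drawn up by symbol and not by kind of RNA. It can therefore hold small nucleolar RNAs, Rnu3a among them. Of 9 tested, 7 were called higher on HFD than LFD under propionate and all 9 lay above 0, with a median of 0.72. Rnu3a, an RNA of the U3 family that acts in ribosomal RNA cleavage, read 9.11, 9.25, 8.83 and 8.19 on propionate HFD arrays, against 6.93, 6.76, 6.71 and 5.72 on propionate LFD arrays, a rise of 2.31 ± 0.50 (limma adjusted p = 0.0156). The vault RNA Vaultrc5 rose by 1.44 ± 0.34, the minor spliceosome RNA Rnu12 by 1.42 ± 0.37, and Rmrp, the RNA of a nuclease that cuts ribosomal RNA precursors, by 0.70 ± 0.20. Rn7sk, near the top of the scale at 13.1 to 13.3 on these arrays, differed by 0.11 ± 0.04 and Rny3 by 0.28 ± 0.10, neither called. The mean of the 9 was 9.57 to 10.1 on propionate HFD arrays, against 8.65 to 9.02 on propionate LFD arrays, and was also high on saline LFD 1 (10.06) and acetate LFD 1 (9.75), where the members were high. How much short RNA each extraction recovered is not known, and its part in the differences of the members and of these RNAs was not tested. Of 115 microRNA genes 3 were called higher and 0 lower, near the 2.05% of all genes called higher, with a median of 0.09.

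Of the listed proteins that work with these RNAs 0 were called higher and 4 lower, beside 2.05% of all genes called higher and 4.82% lower, so that the counts do not set these lists apart. Between HFD and LFD under propionate, 0 of the 4 core proteins of box C/D particles and 0 of the 4 of box H/ACA particles were called, with medians of -0.21 and -0.09. Dkc1, the pseudouridine synthase, differed by -0.38 ± 0.14 (limma adjusted p = 0.0799) and Nop58, a box C/D core protein, by -0.20 ± 0.11 (limma adjusted p = 0.27). Of 8 assembly factors Shq1, a chaperone of box H/ACA particles, fell by 0.45 on the log2 scale (SE 0.11, limma adjusted p = 0.0189). Of 11 processing and decay enzymes Mtrex, the helicase of the nuclear exosome, fell by 0.35 (SE 0.08, limma adjusted p = 0.0199). Of 24 factors of early ribosome assembly Imp4 fell by 0.45 (SE 0.12, limma adjusted p = 0.0257) and Heatr1 by 0.40 (SE 0.12, limma adjusted p = 0.0433). Among 8 Cajal body proteins none was called, Tgs1 having the smallest p (-0.26 ± 0.10, limma adjusted p = 0.124).

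Of 8 tested markers of macrophages and dendritic cells 1, Cd83, rose by 0.67 ± 0.20 (limma adjusted p = 0.0424). Of 15 markers of small-intestinal absorption, of lipids and of sugars, 1, Slc5a1, fell by 0.39 (SE 0.09, limma adjusted p = 0.0156). The lists for colon epithelium, goblet cells, smooth muscle, fibroblasts, endothelium, lymphocytes, adipocytes and red blood cells had 0 called between HFD and LFD under propionate. Propionate HFD and LFD arrays overlapped in the mean log2 level of smooth muscle markers, 5.23 to 5.43 against 5.29 to 5.80.

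Further probe sets bear on how well a member's value can be told from its neighbours. For 8 members a second probe set carried the same symbol, in 5 of them with identical values, so that it adds no measurement. Probe sets that name a small nucleolar RNA together with its host were kept out of the members. Of these, Snora24 with Snhg8 differed by 0.99 ± 0.22 and Snord68 with Rpl13 by 0.75 ± 0.22 between HFD and LFD under propionate, while Snord7 with AI450353 differed by -0.48 ± 0.12 (limma adjusted p = 0.0192, 0.0408 and 0.0248 over all probe sets). Snora43 with Snhg7 (0.44 ± 0.12) and Snord32a with Rpl13a (0.45 ± 0.10) also passed that threshold. Those that did not were Snord34 with Rpl13a (0.73 ± 0.23), Snora65 with Rpl12 (0.13 ± 0.15), Snora26 with Dancr (-0.10 ± 0.11) and Snord14a with Rps13 (-0.15 ± 0.11). Nor did Snord14c and Snord14d with Hspa8 (0.11 ± 0.30 and 0.11 ± 0.31).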

How the data were processed

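Per the labels, RNA was extracted with TRIzol and RNeasy columns, had an integrity number over 8.0, and was labelled by a whole-transcript kit. No source used here gives the recovery of short RNA. The authors deposited log2 values made by RMA, per the submitters' processing notes, for 35556 probe sets on 31 arrays. No RMA version or genome build is given in the sources used here. Genes came from the platform annotation: 21218 probe sets have 1 symbol, 1881 several and 12457 are not listed. Lengths, hosts and promoters are RefSeq's.

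A model with 8 group means was fitted with limma 3.58.1 (R 4.3.3), moderated along an intensity trend, for 20 comparisons. The members, gene lists and comparisons were chosen with earlier results of these data known. Named are members called in any comparison, the 10 largest rises and falls of propionate against saline on HFD, the brightest of each class, the smallest p per class elsewhere, hosts, and called pathway genes or the smallest p of a list with none. Snord35b, Snora75 and other members shown by array were picked after their values were seen.

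The alternatives were other filters, normalization, moderation, array weights, all probe sets, a replicate block and arrays left out. The code was tested on simulated data. The number of arrays limits precision.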

Additional observations from a re-analysis of the deposited data

Results flagged for a closer look

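An array lay far from the rest of its group of 4 in 7 of 182 tests by Dixon's criterion (23 members and 3 class means, the 7 groups of 4 arrays), 3.85%, where chance flags about 1 in 20. Snora75 was low on saline LFD 4, at 5.1173. Snord104 was high on saline LFD 1, at 12.5208. Snord55 was low on saline HFD 4 (6.5747) and high on saline LFD 1 (7.7027). Scarna17 was high on acetate HFD 2 (10.0919) and propionate LFD 2 (9.9053) and low on butyrate LFD 1 (9.4652).

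The class means moved opposite ways under propionate on the 2 diets, every array of a group on its side of the saline mean of that diet. Box H/ACA RNAs differed by 0.7792 on HFD and -0.4038 on LFD, box C/D RNAs by 0.5068 and -0.2964, and Scarna RNAs by 0.4752 and -0.2501. For the class means this difference between diets was not tested, and the fit of single members called none of them. On LFD part of it comes from saline LFD 1, without which the member median was -0.16.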

How the results depend on the processing

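In HFD against LFD under propionate the count of 34 called members ran from 31 to 43 over the alternatives that leave out no single array, and from 1 to 42 with 1 array left out. For counts under other settings or with arrays left out, no share of all genes called is given here. They show how the calls depend on the setting, and not whether the members stand apart from other genes. Array weights called 29 members for propionate against saline on HFD, 35 for butyrate against propionate, 39 for propionate against acetate and 20 for the difference of the propionate response. With the replicate block these were 1, 23, 23 and 7, and 43 for HFD against LFD under propionate, including all 34. The replicate numbers are no pairing in the labels, and deviations of 105 same-numbered pairs had a median r of 0.04 (-0.50 to 0.47), with 10 of 31 arrays closest to their own number. The mean of the members did go with the number in part. It was lowest on replicate 4 of propionate HFD (7.40), butyrate HFD (6.90), saline HFD (6.83), propionate LFD (6.78) and saline LFD (7.11). Acetate LFD went from 7.58 on replicate 1 to 7.34 on 2 and 6.99 on 3. Acetate HFD was lowest on replicate 3 and butyrate LFD on replicate 1. The mean also went in part with the order in which the samples are listed. Arrays listed first, from propionate HFD 1 to acetate LFD 2, lay between 7.12 and 8.00. Those listed last, from acetate HFD 3 to propionate HFD 4, lay between 6.78 and 7.40. These orders run through the comparisons, and what lies behind them was not tested. For butyrate against propionate on HFD (4 called), the stricter filter gave 11, all probe sets 12, quantile normalization 9, no filter 5, only the groups compared 5, no trend 1 and robust moderation 1. It gave 1 without the small-intestinal arrays, 3 without the smooth muscle arrays and 0 to 26 without 1 array. For propionate against acetate on HFD (0 called), the stricter filter gave 8, all probe sets 14, quantile normalization 8, omission of the smooth muscle arrays 8, and omission of 1 array 0 to 23. Propionate against saline on HFD stayed at 0 with each array left out, and the response difference ran from 0 to 9, the 9 without propionate HFD 4. The Scarna mean of propionate against saline on HFD was 0.686 under the stricter filter, which leaves out Scarna8. Omission of 1 array gave class means of 0.65 to 0.88 (box H/ACA), 0.42 to 0.63 (box C/D) and 0.42 to 0.57 (Scarna). Apart from Scarna8, the cause of these changes was not tested. Members near 0 in that comparison changed sign: Snord37 to 0.0168 and Snord96a to -0.0578 without the smooth muscle arrays. With 1 array left out Snord96a ran from -0.103 to 0.135, Snord58b from -0.0821 to 0.0646, Scarna8 from -0.0743 to 0.213 and Snora2b from -0.0111 to 0.0852. Dim members near the filter level carry the least information.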
